A study of Homo sapiens with 15 samples.

Results

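Transcript levels after 9 days of USP7 re-expression were compared with those after 3 days in DLD1 cells, which derive from a human colorectal adenocarcinoma. The comparison takes 6 of 15 RNA-seq libraries, 3 of Dox day 3 and 3 of Dox day 9. These cells descend from a USP7 knockout (KO) line that was transfected with the plasmid pTREG-BI-USP7, which carries GFP-USP7, and with the Tet-ON plasmid pEF1α-Tet3G, and was selected with G418. Doxycycline at 1 µg/ml was present in the medium for 3 or 9 days. The remaining 9 libraries are parental DLD1 cells (WT), KO cells without doxycycline, which the labels also call inducible, and KO cells after 24 hours of doxycycline (day 1), with 3 libraries each. The labels do not state whether the KO line is 1 clone. They name biological triplicates without saying how the cultures were separated, so the p-values cover the spread among libraries, which may be technical. Day 3 and day 9 libraries carry 1 project code in the deposited table and WT, KO and day 1 libraries another. No library of KO cells without doxycycline carries the code of day 3 and day 9. No cells lacking the inducible USP7 were given doxycycline. Longer culture, longer doxycycline exposure and longer USP7 expression therefore cannot be told apart here.

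USP7 is a deubiquitinase, an enzyme that takes ubiquitin off other proteins and so alters their stability or activity. Its known partners include MDM2 and subunits of Polycomb repressive complex 1, which silences developmental genes through histone H2A ubiquitination. Re-expression from an inducible promoter starts a time course in which direct responses come early and changes that need new transcription factors, secreted ligands or cell turnover can come late. DLD1 cells carry mutations that keep Wnt signalling and the RAS pathway active, so stem cell genes, growth factor ligands and epithelial keratins are natural readouts of their state.

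Levels are the authors' normalized counts, in which each library's reads per gene are divided by a size factor. Total normalized counts ran from 14741094 to 15184204 in the 6 libraries. Log2 changes are differences of log2(value + 1) between the group means, which understate changes of low genes. Tests were made with limma, and p-values carry a Benjamini-Hochberg adjustment over the 15134 genes with at least 10 normalized counts in at least 3 libraries. The threshold was an adjusted p of 0.05. All 11 defining colorectal epithelial markers in the table were above 0 in each of the 6 libraries. Of these, CEACAM5 (27.9 to 44.8) and CEACAM6 (18.8 to 37.6) were low and lay below the fibroblast marker PDGFRB (47.7 to 63.7). The measured leukocyte, fibroblast and endothelial markers (4, 3 and 3 genes) summed to between 31.7 and 84.6 normalized counts per library, and those of neural and kidney lines (4 genes) to between 452.4 and 528.1. Of the last 4, PAX8 fell (-0.50, adjusted p = 0.0481), a call that ended without any of 11 libraries (adjusted p up to 0.177).

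The promoters of 4 genes are shown here because their transcripts, or those of the list they belong to, stand out in the comparison. EREG and AREG encode EGF receptor ligands, are both on chromosome 4 and were among the largest increases. PHGDH encodes the first enzyme of serine synthesis, and ASNS (asparagine synthetase) is a classical target of the stress factor ATF4. The sequences run 5′ to 3′ on the gene's own strand from 250 bases before to 50 bases after the start (RefSeq, build GRCh38.p14). Capitals mark a match to the full cyclic AMP response element TGACGTCA in AREG and to the C/EBP-ATF composite element TGATGNAA, which ATF4 can bind, in ASNS. They lie at chr4:74364895-74365194 (plus strand), chr4:74444886-74445185 (plus strand), chr1:119711684-119711983 (plus strand) and chr7:97872359-97872658 (minus strand).
EREG: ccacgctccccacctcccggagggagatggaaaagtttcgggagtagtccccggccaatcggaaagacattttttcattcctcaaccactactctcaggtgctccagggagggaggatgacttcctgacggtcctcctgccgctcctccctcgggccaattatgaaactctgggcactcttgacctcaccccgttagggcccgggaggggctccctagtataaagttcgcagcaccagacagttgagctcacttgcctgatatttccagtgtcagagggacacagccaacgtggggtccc
AREG: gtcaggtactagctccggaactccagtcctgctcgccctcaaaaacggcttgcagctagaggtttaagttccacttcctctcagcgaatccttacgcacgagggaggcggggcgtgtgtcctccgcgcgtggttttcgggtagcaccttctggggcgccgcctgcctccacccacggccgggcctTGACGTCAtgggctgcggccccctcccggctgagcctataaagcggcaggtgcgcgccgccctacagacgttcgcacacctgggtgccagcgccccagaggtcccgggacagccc
PHGDH: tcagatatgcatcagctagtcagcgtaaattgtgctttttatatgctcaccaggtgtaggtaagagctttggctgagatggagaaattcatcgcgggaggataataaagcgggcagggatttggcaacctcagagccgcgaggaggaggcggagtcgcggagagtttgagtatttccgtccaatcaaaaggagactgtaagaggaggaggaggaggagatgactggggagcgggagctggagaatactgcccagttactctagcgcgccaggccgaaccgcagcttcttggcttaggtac
ASNS: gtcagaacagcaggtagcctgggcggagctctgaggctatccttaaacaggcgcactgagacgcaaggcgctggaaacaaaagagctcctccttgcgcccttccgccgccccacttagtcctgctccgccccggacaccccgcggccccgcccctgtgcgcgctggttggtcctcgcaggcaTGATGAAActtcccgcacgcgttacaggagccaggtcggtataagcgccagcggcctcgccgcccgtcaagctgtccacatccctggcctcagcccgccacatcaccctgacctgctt

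USP7 itself was lower at day 9 than at day 3. Its transcript (ENSG00000187555) stood at 7819.2, 7491.2 and 8173.5 normalized counts in the 3 day 3 libraries and at 4944.7, 4402.4 and 5016.5 in the 3 day 9 libraries. All 3 day 9 values were below all 3 day 3 values, and the log2 level fell by 0.71 (SE 0.05, adjusted p = 5.91e-09). Counts do not separate the transgene from endogenous transcript. The comparison therefore sets a longer exposure at a lower USP7 transcript level against a shorter one at a higher level. In the libraries of the other project code, USP7 was at 3391.8 ± 25.4 in WT cells, 1389.3 ± 17.6 in KO cells and 8238.9 ± 375.3 at day 1 (SD, n = 3). USP7 transcript was therefore still measured in the KO libraries, below WT (log2 change -1.29, adjusted p = 8.95e-15).

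Between day 3 and day 9, 1123 of 15134 genes (7.42%) passed the threshold, of which 459 (3.03%) were higher at day 9 and 664 (4.39%) were lower. Most changes were small. The median size of a called log2 change was 0.29, and 46 genes (0.304%) changed by at least 1 log2 unit, 18 upwards (0.119%) and 28 downwards (0.185%). Of all tested genes 4099 (27.1%) had no overlap between the 3 and 3 libraries. The count of called genes depended on single libraries. It was 627 without day 3 replicate 1, 672 without day 3 replicate 3, 644 without day 9 replicate 2 and 629 without day 9 replicate 3. It was 2060 without day 1 replicate 1, a library outside the comparison that enters the shared estimate of the spread. That library differed from its group by 9.95 to 13.94 times the variance of counting alone. Within the comparison, day 9 replicate 1 differed from the other day 9 libraries by 4.44 to 5.39 times that variance. Those others differed from each other by 2.16 times, and day 3 libraries by 2.36 to 2.66 times. Without day 9 replicate 1 the count was 924.

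**Figure D1:**
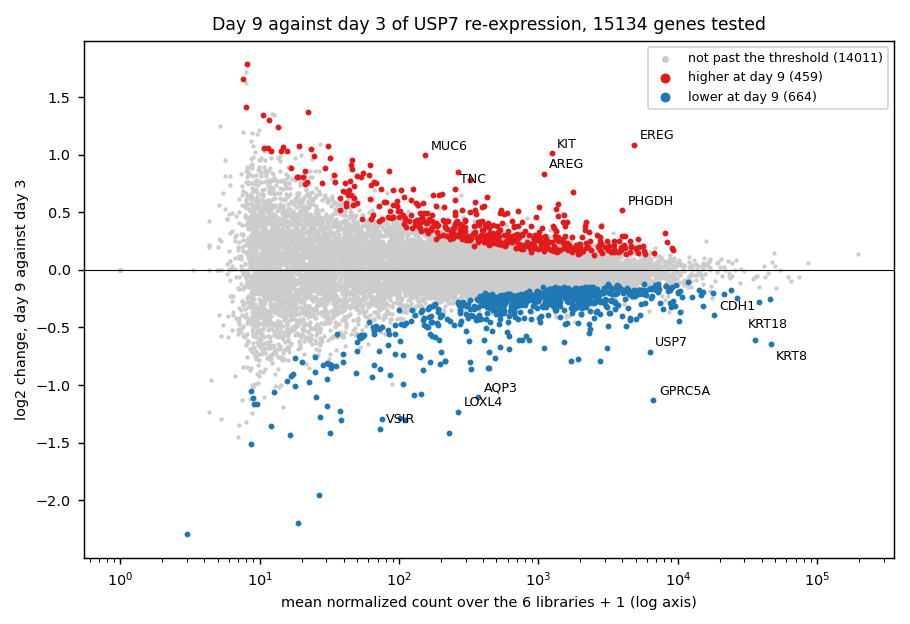
Log2 change from day 3 to day 9 (vertical axis) against the mean normalized count over the 6 libraries plus 1 (horizontal log axis) for 15134 genes. Red points (459) were higher and blue points (664) lower at day 9 at an adjusted p under 0.05, and grey points did not pass. EREG, KIT and AREG stand out among the well-expressed genes that rose, and GPRC5A, KRT18 and KRT8 among those that fell.

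The EGF receptor ligands EREG and AREG rose late. EREG, which encodes epiregulin, stood at 3078.6, 3225.9 and 3042.4 at day 3 and at 6763.1, 6737.5 and 6335.0 at day 9. The log2 change was 1.09 (SE 0.06, adjusted p = 1.82e-09). Non-overlap of the day 3 and day 9 libraries was a condition of the ranking of largest increases. At day 1 EREG (3002.6 ± 138.5) was below KO (3909.6 ± 400.8) by 0.38 log2 units (adjusted p = 0.000654), so the late rise ran against the first response. AREG, which encodes amphiregulin, went from 790.9, 851.7 and 703.2 at day 3 to 1427.3, 1368.3 and 1382.2 at day 9 (0.84, adjusted p = 1.4e-08) after an early fall of the same kind (-0.24, adjusted p = 0.0135). Epiregulin and amphiregulin are ligands with low affinity for the receptor, and in colorectal cancer their transcripts are read as a sign of dependence on it. The hg19 build to which the authors aligned holds a near-identical copy of AREG, so its counts are less certain than those of EREG.

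Other members of the EGF receptor family list did not follow them. Of 12 tested, 2 rose and 2 fell (33.3% called, against 7.42% over all genes). The median log2 change was 0.06 against 0.00 over all genes, but -0.05 without day 3 replicate 2 and -0.04 without day 9 replicate 2. TGFA, the ligand TGF-alpha, fell from 2900.4, 2866.1 and 3035.5 to 2240.4, 2276.6 and 2335.6 (-0.36, adjusted p = 9.46e-06). TGFA had risen at day 1 against KO (0.21, adjusted p = 0.00236), so its course was the reverse of that of EREG. HBEGF fell from 184.1, 170.9 and 214.8 to 117.4, 160.6 and 156.2 (-0.40, adjusted p = 0.0368). The HBEGF groups did not overlap, but its call ended without day 3 replicate 1, day 3 replicate 3 or day 9 replicate 1 (adjusted p up to 0.179). The receptor genes EGFR (0.08, adjusted p = 0.263), ERBB2 (-0.24, adjusted p = 0.0898) and ERBB3 (0.11, adjusted p = 0.188), listed members named after their values were seen, did not pass.

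**Figure D2:**
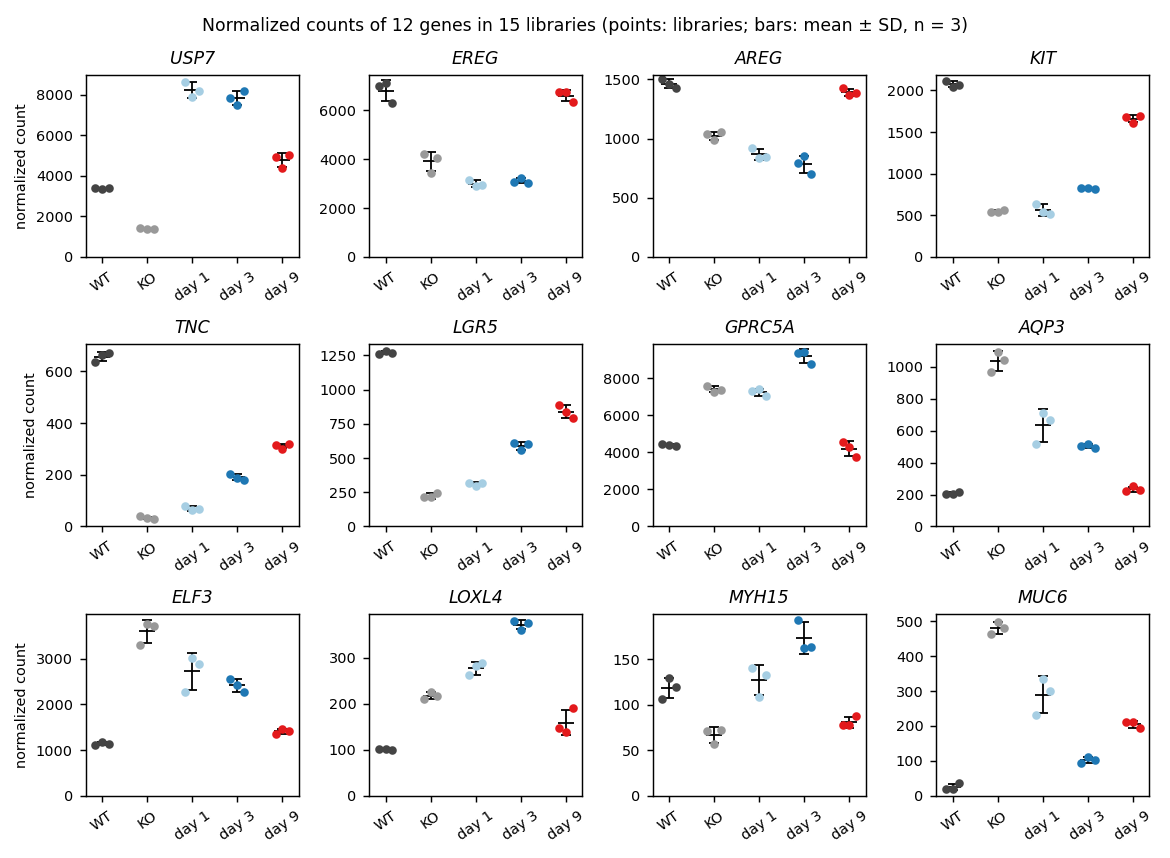
Normalized counts (vertical axes, from 0) of 12 genes in all 15 libraries, with points for libraries and bars for the mean ± SD of 3. Day 3 (dark blue) and day 9 (red) share 1 project code, and WT, KO and day 1 share the other. EREG and AREG dip and then rise, KIT and LGR5 climb, GPRC5A, LOXL4 and MYH15 peak at day 3, and MUC6 falls and then rises.

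KIT, the receptor tyrosine kinase for stem cell factor, stood at 832.5, 822.9 and 816.6 at day 3 and at 1677.1, 1612.2 and 1698.7 at day 9 (log2 change 1.01, SE 0.06, adjusted p = 1.82e-09). The day 9 values lay about as far above day 3 as those of EREG. KIT was not called at day 1 against KO (561.9 ± 68.2 against 549.6 ± 9.3, adjusted p = 0.861), so in the comparisons within a project code its rise was seen late. The gastric mucin MUC6 rose from 93.0, 111.3 and 102.4 to 210.0, 210.2 and 193.1 (1.00, adjusted p = 0.00208), again the reverse of its fall at day 1 (-0.74, adjusted p = 0.0127). FKBP10, an endoplasmic reticulum prolyl isomerase that acts on collagen, rose from 194.0, 191.8 and 177.0 to 308.5, 334.1 and 379.1 (0.85). MCOLN3, an endolysosomal cation channel, rose from 221.7, 229.6 and 259.6 to 427.0, 374.8 and 419.9 (0.78). Among the 15 largest increases in non-overlapping genes of mean 50 or more, the other 9 were TNC (described with the matrix genes) and lower transcripts. Of these, NUPR1, HES7, SYNE3, ADAMTS19 and TBC1D22A-DT kept their call whichever library was left out. The calls of MX2, SLAMF6 and PRSS2 ended without any of 4 libraries each (adjusted p up to 0.131), and PRSS2 has near-identical trypsinogen copies.

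Among decreases the largest in a highly expressed gene was of GPRC5A, an orphan receptor first described as induced by retinoic acid. It went from 9356.5, 9429.1 and 8760.3 at day 3 to 4547.6, 4269.6 and 3771.6 at day 9 (-1.13, SE 0.05, adjusted p = 1.83e-11). Every day 9 library was below every day 3 library. LOXL4, a lysyl oxidase that crosslinks matrix proteins, fell from 379.1, 360.7 and 376.0 to 148.3, 139.8 and 190.1 (-1.23). AQP3, a water and glycerol channel of epithelial cells, fell from 506.8, 514.8 and 489.3 to 223.9, 251.9 and 225.9 (-1.11). CPA4, a secreted carboxypeptidase, fell from 166.3, 141.1 and 164.1 to 56.7, 69.4 and 62.7 (-1.31), and PKIB, an inhibitor of protein kinase A, from 413.8, 433.3 and 415.7 to 234.9, 226.1 and 230.9 (-0.87). None of these 5 genes overlapped between the days, which was a condition of the ranking from which they were taken.

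For the other 10 of the 15 largest decreases, log2 changes were -1.38 for the immune checkpoint gene VSIR, -1.29 for the surface antigen gene PSCA and -1.28 for the TEAD cofactor gene VGLL1. The ferlin gene FER1L6 (-1.08), the adaptor gene DAPP1 (-0.99) and the myosin gene MYH15 (-1.08) also fell, as did SDCBP2 (-0.93) and the actin-binding gene SYNPO (-0.87). The retinal reductase gene DHRS3 fell by 0.91 (adjusted p = 0.0167), and its call ended without day 3 replicate 2 or day 9 replicate 1 (adjusted p up to 0.0752). GPC1-AS1 fell by 1.42 (adjusted p = 7.8e-08) and lies antisense to GPC1, which did not pass (-0.24, adjusted p = 0.447). Whether counting used strand is not stated, so reads of that pair cannot be told apart.

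Many keratin and junction genes of epithelial cells were lower at day 9. Of 39 tested, 15 fell and 1 rose, with a median log2 change of -0.15, against 4.39% lower over all genes. KRT18 fell from 44295.7, 44576.6 and 40862.4 to 28892.9, 29239.4 and 26733.3 (-0.61, adjusted p = 1.4e-08). Its partner KRT8, named after its values were seen, fell from 58439.3, 59216.2 and 52042.4 to 33944.1, 38864.2 and 35759.2 (-0.64, adjusted p = 0.000284). Together they form the intermediate filaments of simple epithelia. Neither overlapped between the days, and both have many pseudogene copies, so their single values are less certain. CDH1, the adhesion protein E-cadherin, fell from 20613.5, 20761.3 and 20612.7 to 16070.3, 15339.1 and 15766.9 (-0.39, SE 0.03, adjusted p = 5.75e-08). ELF3, an epithelial transcription factor, fell from 2549.0, 2421.9 and 2265.7 to 1354.6, 1455.6 and 1421.1 (-0.77, adjusted p = 1.8e-05).

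Other epithelial members that fell included the desmosome genes PKP2, DSC2 and DSP, the tight junction genes OCLN and F11R, the keratins KRT15, KRT80, KRT13 and KRT7, and the regulator OVOL1. The calls of DSP, F11R, KRT7 and OVOL1 ended when single libraries were left out (adjusted p up to 0.196). CLDN2, a claudin that forms cation pores, rose against the list from 860.2, 748.3 and 837.4 to 1334.7, 1187.9 and 1065.8 (0.55, adjusted p = 1.99e-05). EPCAM (-0.12, adjusted p = 0.167) and KRT19 (-0.36, adjusted p = 0.15), both defining markers of the lineage, did not pass. The summed level of the 11 colorectal markers was 142851.7 to 154719.7 at day 3 and 103588.7 to 109399.1 at day 9, a difference carried mostly by KRT8 and KRT18. In the same list 28 members were higher and 4 lower in KO than in WT, where 24.8% of all genes were higher and 24.8% lower. In the bulk RNA measured here, fewer cells expressing a gene and less RNA per cell cannot be told apart.

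Many genes of the ATF4 stress response and serine synthesis rose late. ATF4 is a transcription factor made when translation is restrained by stress, and it switches on amino acid synthesis, uptake and tRNA charging. Of 35 tested members, 14 (40.0%) rose and none fell, against 3.03% higher and 4.39% lower over all genes from day 3 to day 9. The median log2 change was 0.19, and 88.6% of the values were positive, against 50.7% over all genes. The count that rose was 6 without day 3 replicate 3, 8 without day 9 replicate 2 and 9 without day 9 replicate 3. At day 1 against KO, where 10.9% of all genes passed (4.94% higher and 5.97% lower), 1 member was higher and 1 lower.

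**Figure D3:**
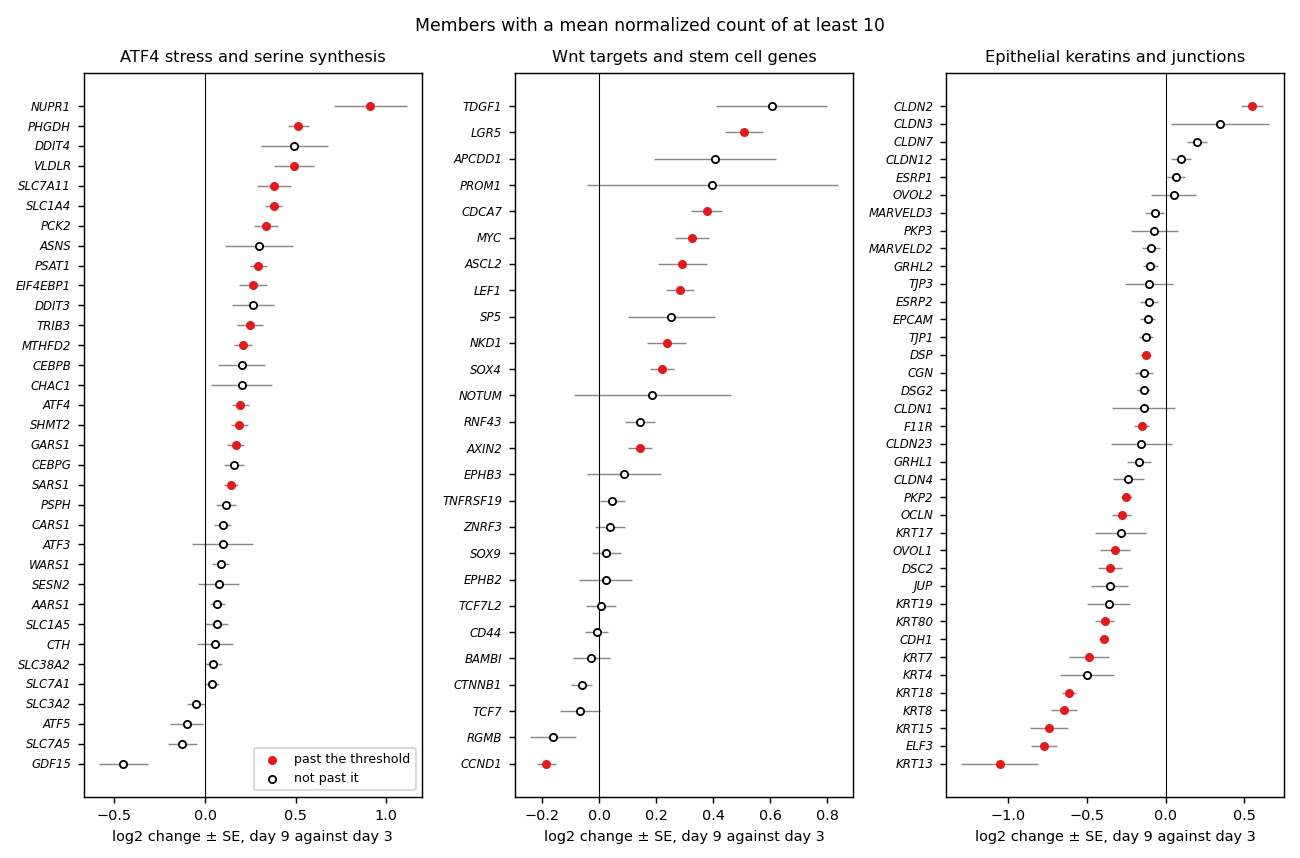
Log2 change ± SE from day 3 to day 9 for members of 3 lists with a mean of at least 10 normalized counts over the 15 libraries (34 of 36, 26 of 26 and 38 of 40 members in the table are drawn). Filled red points passed the threshold and open points did not. Most ATF4 and serine synthesis members lie right of 0, most epithelial members lie left of it, and CCND1 is the only Wnt member that passed on the left.

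Of the 3 enzymes of serine synthesis, the first 2 rose. PHGDH stood at 3239.9, 3432.6 and 3156.8 at day 3 and at 4579.4, 4894.2 and 4574.6 at day 9 (0.52, SE 0.06, adjusted p = 6.51e-06). PSAT1, the second enzyme of the pathway, went from 3792.3, 3893.7 and 3579.5 to 4658.1, 4510.5 and 4642.3 (0.30, adjusted p = 0.000284). Both genes had no overlap between the days, while PSPH, the last enzyme, did not pass (0.11, adjusted p = 0.235). SLC1A4, a transporter of serine and alanine, rose from 1906.5, 1892.2 and 1836.0 to 2472.4, 2452.1 and 2400.3 (0.38, adjusted p = 1.6e-05). PCK2, the mitochondrial phosphoenolpyruvate carboxykinase, rose from 1200.7, 1171.7 and 1145.8 to 1509.9, 1481.4 and 1448.9 (0.34, adjusted p = 0.0035). The stress regulator NUPR1 rose from 49.5, 43.7 and 33.8 to 73.7, 88.2 and 77.6 (0.91, adjusted p = 0.00666), and the lipoprotein receptor gene VLDLR by 0.49 (adjusted p = 0.00824). These 6 calls held whichever single library was left out.

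ATF4 itself rose by 0.20 log2 units (adjusted p = 0.0156), as did the mitochondrial folate enzymes MTHFD2 (0.21) and SHMT2 (0.19), the tRNA synthetases GARS1 (0.17) and SARS1 (0.14), TRIB3 (0.25), EIF4EBP1 (0.27) and the cystine transporter SLC7A11 (0.38). Each of these 8 calls ended when 1 of between 2 and 10 libraries was left out (adjusted p up to 0.187). The stress-induced members DDIT3 (0.26, adjusted p = 0.183), ASNS (0.30, adjusted p = 0.371) and CHAC1 (0.20, adjusted p = 0.525) did not pass. ASNS was low throughout, between 47.7 and 66.7 normalized counts in the 6 libraries.

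The printed promoters can be read against these values. The element TGATGNAA, searched on both strands, was in 8 of 30 listed promoters with an entry (26.7%) and in 180 of 10793 promoters of tested genes (1.67%). The 8 genes were AARS1, ASNS, ATF3, CARS1, CHAC1, FGF21, SLC3A2 and SLC7A1, none of which passed between day 3 and day 9. Among the 10 risen members with an entry, PHGDH and PSAT1 included, 0 promoters held it within these 300 bases, which says only that these letters are absent from that window. In ASNS the match begins 68 bases before the start, on the gene's strand. The element TGACGTCA, in AREG from 65 bases before the start, was in 357 of 10793 promoters (3.31%), and the EREG window held no match to it. The AP-1 element TGANTCA was in 43 of 515 promoters of genes lower at day 9 (8.35%), in 15 of 329 promoters of genes higher (4.56%) and in 504 of 10793 of all tested (4.67%), a description without a test.

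Several Wnt targets and stem cell genes were also higher at day 9. Of 26 tested, 8 rose and 1 fell, against 3.03% higher and 4.39% lower over all genes, with a median log2 change of 0.14. The count that rose was 5 without day 3 replicate 1, day 3 replicate 2, day 9 replicate 2 or day 9 replicate 3, and the median was 0.08 without day 3 replicate 3. LGR5, the receptor for R-spondins that marks intestinal stem cells, stood at 606.8, 557.5 and 599.7 at day 3 and at 885.8, 832.9 and 792.1 at day 9 (0.51, SE 0.07, adjusted p = 4.23e-05). It had risen at day 1 against KO as well (0.49, adjusted p = 6.63e-05), so it was a gene that kept moving the same way. CDCA7 rose from 1129.5, 1085.2 and 1100.0 to 1480.0, 1391.1 and 1434.0 (0.38), and LEF1, a transcription factor that binds Wnt-responsive elements, from 819.6, 862.6 and 903.1 to 1059.0, 1034.2 and 1053.8 (0.28).

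MYC rose from 2094.6, 1983.6 and 2050.8 to 2508.2, 2633.5 and 2532.6 (0.32, SE 0.06, adjusted p = 0.00154), after a fall at day 1 against KO (-0.64, adjusted p = 8.64e-07). The day 9 level was above every day 3 library. In the list of MYC targets and ribosome biogenesis the share called (6.52%) was near that over all genes (7.42%). Of 46 tested, 2 rose (MYC itself and CAD) and 1 fell (EIF5A), with a median log2 change of 0.04. The count that rose was 1 to 7 with single libraries left out. At day 1 against KO, 25 of the 46 were lower and 0 higher, where 5.97% of all genes were lower. SOX4 rose too (0.22, adjusted p = 0.00188). The calls of NKD1, AXIN2 and ASCL2 (0.14 to 0.29) ended when single libraries were left out (adjusted p up to 0.205). The cyclin CCND1 fell from 10962.1, 10895.9 and 11323.3 to 9856.6, 9675.4 and 9636.9 (-0.19, adjusted p = 0.00135).

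More matrix and mesenchymal genes rose than fell. Of 26 tested, 6 rose and 2 fell (30.8% called, against 7.42% over all genes), with a median log2 change of 0.08. TNC, the matrix glycoprotein tenascin C, rose from 204.9, 186.8 and 181.0 to 314.5, 301.4 and 318.4 (0.71, SE 0.11, adjusted p = 0.000293). It had also risen at day 1 against KO (1.05, adjusted p = 2.74e-06). TGFBI, a matrix protein induced by TGF-beta, rose from 2511.4, 2452.7 and 2493.4 to 3093.4, 3006.3 and 2974.5 (0.28, adjusted p = 7.76e-05), again the direction of day 1 (0.24, adjusted p = 0.000399). The basement membrane collagen COL4A1 rose from 185.1, 201.7 and 204.9 to 295.6, 327.2 and 281.6 (0.61, adjusted p = 0.000696). LOX rose at a level under 50 normalized counts, and S100A4 by 0.32, a call that ended without day 3 replicate 1 (adjusted p = 0.0585). The matricellular gene THBS1 fell from 2279.7, 2181.4 and 2166.2 to 1618.4, 1590.4 and 1614.1 (-0.46, adjusted p = 5.36e-07). TPM1 fell by 0.17, a call lost without any of 4 libraries (adjusted p up to 0.0906).

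Genes of the TGF-beta and BMP pathway split. Of 34 tested, 4 rose and 3 fell (20.6% called, against 7.42% over all genes), with a median of -0.03. The count that rose was 2 without day 9 replicate 3, the count that fell was 1 without day 3 replicate 1, and the median was -0.07 without day 3 replicate 3. The ligand BMP4 rose from 7242.1, 7265.6 and 7170.9 to 8752.8, 9194.5 and 9106.5 (0.32, adjusted p = 6.7e-05). The signal transducer SMAD3 fell from 1565.0, 1576.2 and 1518.7 to 1315.8, 1268.2 and 1249.9 (-0.28, adjusted p = 0.000177). SMAD3 had risen at day 1 (0.20, adjusted p = 0.00372).

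In the lists of lysosomal, inflammatory and endoplasmic reticulum genes, members that passed were all lower, where 4.39% of all tested genes were lower. Outside these lists, the endolysosomal gene MCOLN3 (0.78) and the endoplasmic reticulum gene FKBP10 (0.85) rose. In the lysosome and autophagy list 7 of 29 members fell and 0 rose (24.1%, median -0.08); 3 fell without day 3 replicate 1 and 4 without day 9 replicate 3. PSAP, the precursor of the saposins that help degrade sphingolipids, fell from 9995.9, 9840.5 and 9260.5 to 7806.2, 8189.1 and 7872.5 (-0.29, adjusted p = 0.00055). LAMP1 (-0.23) and the autophagosome gene MAP1LC3B (-0.30) fell as well. In the NF-kB and chemokine list 4 of 23 fell and 0 rose (17.4%, median -0.14). The iron-binding defence protein gene LCN2 fell from 599.9, 530.7 and 556.0 to 320.5, 325.2 and 289.6 (-0.85, adjusted p = 1.2e-06). The heparan sulfate proteoglycan gene SDC4 fell from 2635.1, 2725.0 and 2718.2 to 1994.6, 1961.3 and 1869.9 (-0.47, adjusted p = 2.36e-07). Of 27 endoplasmic reticulum chaperone genes, 3 fell (11.1%) and 0 rose (5 fell and 1 rose without day 1 replicate 1), among them CALR from 19127.7, 18795.6 and 19710.6 to 16824.8, 16387.1 and 17037.7 (-0.20, adjusted p = 0.000803).

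**Figure D4:**
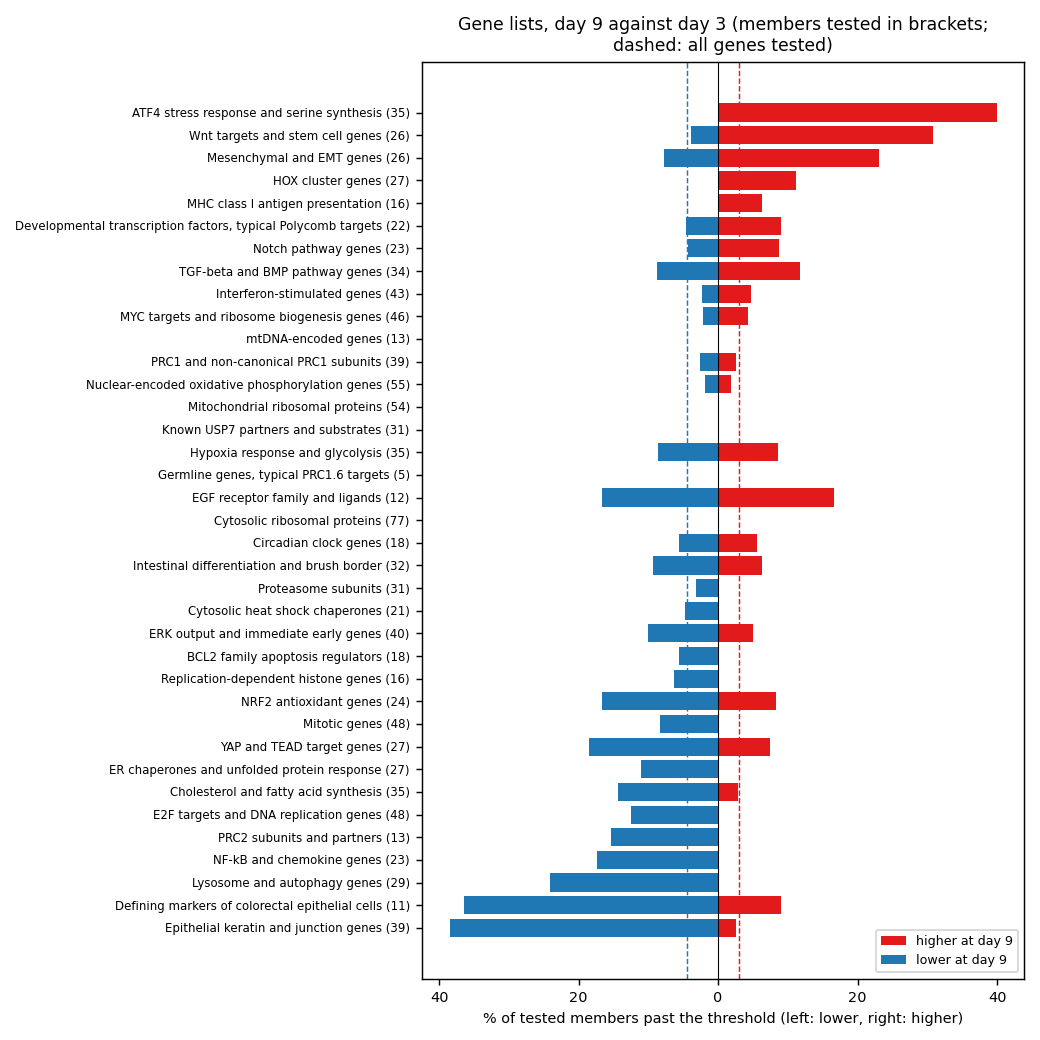
Share of tested members past the threshold from day 3 to day 9 in gene lists with at least 5 tested members, with those lower at day 9 drawn to the left in blue and those higher to the right in red, in percent from 0. Dashed lines mark the shares over all tested genes, 4.39% lower and 3.03% higher. The ATF4 list reaches 40.0% on the right and the epithelial list extends farthest on the left.

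In the lists of E2F targets and mitotic genes, the members that passed were all lower at day 9. Of 48 E2F targets 6 fell and 0 rose (12.5% called, against 4.39% lower over all genes, median -0.08), but the count was 0 without day 3 replicate 1 or day 9 replicate 2 and 1 without day 3 replicate 3 or day 9 replicate 3. Of 48 mitotic genes 4 fell and 0 rose (8.33%, median -0.06). The count that fell was 1 without day 9 replicate 2 and 7 without day 1 replicate 1. Up to 1 mitotic gene rose with single libraries left out. KIF4A, a chromosome-associated kinesin, fell from 1058.2, 1005.7 and 979.7 to 893.8, 870.6 and 828.9 (-0.23, adjusted p = 0.00561). Cytosolic ribosomal protein genes had 0 of 77 called by limma in either direction at a median of 0.05. Of their values 89.6% were positive, against 50.7% over all genes. The 13 at an unadjusted p under 0.05 were all higher, and up to 6 were called higher with single libraries left out. Of 54 mitochondrial ribosomal protein genes 0 were called by limma and 6 had an unadjusted p under 0.05, all higher (up to 2 called higher with single libraries left out). Of 13 mtDNA-encoded genes 0 were called and 1 had an unadjusted p under 0.05, which was higher (up to 1 called lower with single libraries left out).

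USP7 partners and Polycomb genes were read against the 7.42% called over all genes. Of 31 known USP7 partners and substrates, 0 were called in limma, 7 had an unadjusted p under 0.05 (3 higher and 4 lower), and the log2 changes ran from -0.30 to 0.14; 3 fell without day 1 replicate 1. MDM2 stood at 1218.6, 1232.3 and 1242.2 at day 3 and at 1099.8, 1104.6 and 1135.5 at day 9 (-0.15, SE 0.05, adjusted p = 0.113), groups that did not overlap but did not pass. Among the 39 tested PRC1 genes, non-canonical forms included, 1 rose and 1 fell (5.13%). SCMH1 rose from 622.6, 642.0 and 630.6 to 793.3, 790.3 and 746.4 (0.30, adjusted p = 0.000951). AUTS2, a component of non-canonical PRC1, fell from 93.0, 98.4 and 109.4 to 67.7, 54.5 and 68.7 (-0.65, adjusted p = 0.00398), as it had at day 1 against KO (-0.70, adjusted p = 0.00165). Without day 1 replicate 1 the PRC1 counts were 3 and 6. The PRC2 cofactor JARID2 fell from 424.7, 429.3 and 432.6 to 329.4, 335.1 and 304.5 (-0.41, adjusted p = 0.000918). Among 27 HOX genes (11.1% called) 3 rose (HOXA9, HOXB4 and HOXB9, by 0.16 to 0.22), and 0 did so without day 3 replicate 1 or day 9 replicate 1.

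Early and late responses were compared through 2 contrasts that share no library with day 9 against day 3 and lie within the other project code. All were tested with the same estimate of the spread per gene, so their calls are not independent. In the first, day 1 against KO, 1650 genes (10.9%) passed. Of the 1123 genes called between day 3 and day 9, 84 moved the same way at day 1 (7.48% of these calls and 5.09% of the day 1 list) and 217 moved the opposite way (19.3% and 13.2%). The others were not called at day 1. The opposite class held 113 genes that were higher and 104 that were lower at day 9. These counts are descriptions with no test of the overlap, and they were 178 and 437 without day 1 replicate 1; the same-way count was 55 and 54 without day 3 replicates 1 and 3, and the opposite count was 144, 131, 134 and 142 without day 3 replicate 3, day 9 replicate 2 and KO replicates 2 and 3.

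Genes that rose at day 1 and fell from day 3 to day 9 changed direction, which does not say whether they returned to the KO level. MYH15 rose at day 1 against KO (67.0 ± 8.9 to 126.9 ± 16.7, log2 change 0.91, adjusted p = 9.46e-05) and then stood at 193.0, 162.0 and 163.1 at day 3 and 77.6, 77.3 and 87.6 at day 9. LOXL4 rose from 218.1 ± 6.8 to 277.1 ± 13.6 at day 1 (0.34, adjusted p = 0.0233) before its late fall. The cell envelope gene SCEL rose at day 1 (0.34, adjusted p = 0.0182) and fell from 520.7, 564.5 and 618.6 at day 3 to 329.4, 303.4 and 307.5 at day 9 (-0.85, adjusted p = 2.77e-06). The glycolytic enzyme PKM rose at day 1 (0.32, adjusted p = 5.81e-06) and fell from 50349.9, 48929.4 and 50016.5 to 42675.0, 41103.1 and 41622.6 (-0.25, adjusted p = 9.58e-05). Day 9 levels can be set beside KO only across project codes. There PKM (0.23, adjusted p = 4.1e-05) and USP7, also of this class (1.78, adjusted p = 1.46e-16), were above KO. LOXL4 was below KO (-0.46, adjusted p = 0.000997), and MYH15 was not called (0.27, adjusted p = 0.131). The 113 genes of the opposite course, lower at day 1 and higher at day 9, included EREG, AREG, MUC6, MYC, CDCA7, PSAT1 and CLDN2, and the Notch-related repressors HES6 and HES7. HES6 fell at day 1 (-0.65, adjusted p = 0.00127) and rose from 122.7, 161.0 and 121.3 to 191.1, 217.1 and 225.9 (0.65, adjusted p = 0.00149).

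The second contrast, KO against WT, sets the direction of late changes beside that of the knockout difference. A shared or opposite sign does not say whether day 9 lies nearer to WT than day 3 does, since either day may be past the WT level. MCOLN3, for example, moved against the knockout difference from a mean of 237.0 at day 3 to 407.2 at day 9. The WT mean of 293.4 lay between them, in values that cross project codes. KO against WT called 7519 genes (49.7%), 3759 higher and 3760 lower in KO (24.8% each). Of the 1123 genes, 590 moved against the knockout difference (52.5% of these calls and 7.85% of the KO list) and 305 moved with it (27.2% and 4.06%). Among the 664 genes lower at day 9, 395 (59.5%) had been higher in KO and 126 lower. Among the 459 genes higher at day 9, the split was 195 (42.5%) against and 179 (39.0%) with the knockout difference. Leaving out day 3 replicate 1 gave 363 against and 170 with the knockout difference. Leaving out day 9 replicate 3 gave 369 and 162, and leaving out day 1 replicate 1 gave 1040 and 570. The count of genes that moved with it was also 202, 166 and 149 without day 3 replicates 2 and 3 and day 9 replicate 2.

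**Figure D5:**
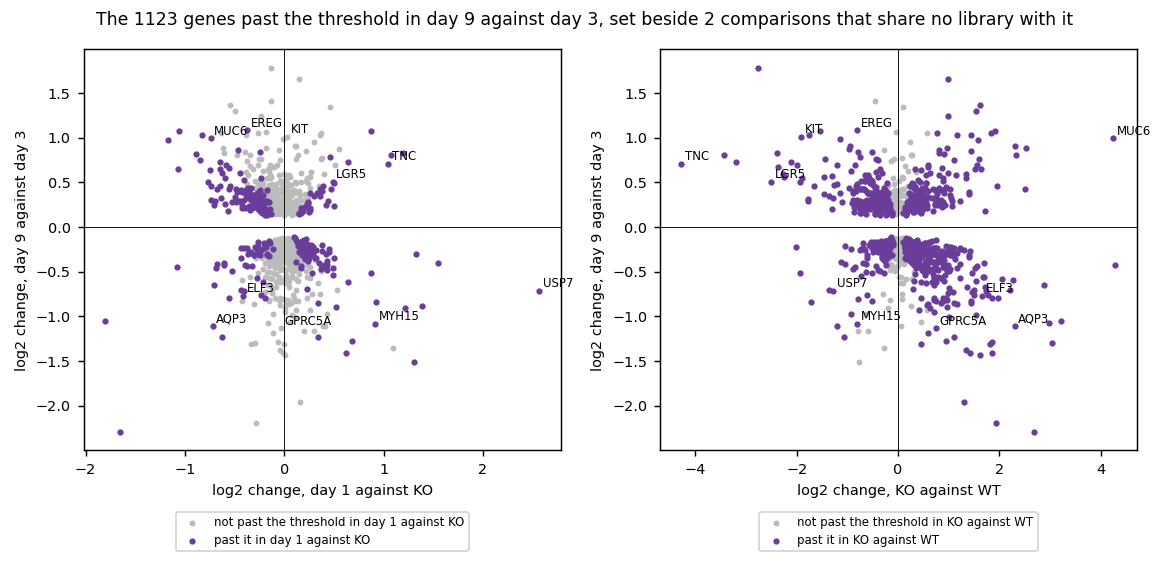
Log2 change from day 3 to day 9 (vertical axes) of the 1123 called genes against their log2 change at day 1 against KO (left) and in KO against WT (right), comparisons that share no library with the vertical axis. Purple points also passed the threshold in the comparison on the horizontal axis and grey points did not. On the right, more purple points lie in the upper left and lower right of the panel (590) than in its upper right and lower left (305).

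EREG and KIT moved against the knockout difference. Their WT means were 6816.7 ± 434.9 and 2071.3 ± 35.9, beside day 9 means of 6611.9 ± 240.1 and 1662.7 ± 45.0, values that cross project codes and are given side by side only. ELF3, AQP3, GPRC5A and KRT18 fell at day 9 after being higher in KO than in WT by 0.73 to 2.30 log2 units. MUC6 (25.2 ± 9.2 in WT and 479.9 ± 17.2 in KO) and the microvillus gene VIL1 moved with the knockout difference instead. VIL1 rose from 1191.8, 1129.9 and 1143.8 at day 3 to 1649.2, 1640.0 and 1495.7 at day 9 (0.46, SE 0.06, adjusted p = 2.75e-05), having been 1.96 log2 units higher in KO than in WT. OLR1, a scavenger receptor for oxidised lipoprotein, was lower in KO (1392.4 ± 64.7) than in WT (2313.8 ± 67.0) and fell between the late days from 2649.9, 2750.8 and 2778.9 to 1942.8, 1826.4 and 1840.0 (-0.54, adjusted p = 3.97e-07). The day 9 level of OLR1 was still above KO (0.43, adjusted p = 1.45e-06), across project codes. NTN4, a secreted netrin with means of 133.8 in KO and 345.2 in WT, fell from 231.6, 269.3 and 244.7 to 151.3, 157.7 and 145.3 (-0.71, adjusted p = 1.1e-05).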

How the data were processed

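The series table holds RNA-seq values for 15 DLD1 libraries, whose groups and replicate numbers were read from the sample titles. The libraries were prepared with a strand-marking poly(A) kit, per the labels. Per the submitters' processing notes, the authors used HISAT2 2.1.0 (build hg19), HTSeq and DESeq2. Annotation and strand setting: not given in the sources used here. What the authors deposited for each library is a normalized count, a signal obtained by dividing counts by a size factor. The authors' comparison columns were not used. Every value was a whole multiple of 1 step per library (0.99 to 1.007, within 1e-06). Reads were not taken as recovered from steps so near 1, so the count tests planned for that case were not run and the test planned for normalized values was used. Of 22706 genes, 1 was dropped because a cell of its row held text, and 19179 matched a symbol in a separate table of gene names through their Ensembl ID.

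Values were taken as log2(value + 1). The filter kept 15134 genes that reached 10 in 3 or more libraries. The model, in limma 3.58.1 with statmod 1.5.0 under R 4.3.3, had 1 mean for each group over the 15 libraries, and eBayes was run with its trend and robust settings. Contrasts were two-sided, with Benjamini-Hochberg adjustment and a threshold of 0.05. The fit was tested on simulated data drawn with the same spread setting for every gene and library. That check does not cover a library that diverges from its group. The median standard error of a log2 change was 0.087. Replicates correlated at Pearson r 0.9908 to 0.9963 across genes, which are not independent replicates, and none was a duplicate.

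The comparison, the gene lists and the rules were chosen with earlier results of these data known. Lists are described by counts and medians, without a set test, and 1 list and a few single genes have been omitted. Named genes are USP7, the 15 largest called changes in each direction (mean over the 6 libraries 50 or more, no overlap of 3 against 3), in each list the 4 or fewer members of smallest adjusted p, and, for each sign class against day 1 minus KO or KO minus WT, the 5 largest changes in each direction under the same limits. Other list members were named after their values were seen. Promoter sequences are from RefSeq (GRCh38.p14), available for 10793 tested genes, and no coordinate of the hg19 build is printed. Alternatives were other scalings, filters and pseudocounts, the 6 libraries alone, a replicate block and each library left out.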

Additional observations from a re-analysis of the deposited data

How the results depend on the processing

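With all libraries in place, no alternative moved the count of 1123 calls by more than 1.5 times. There were 1071 with libraries scaled to equal medians (391 higher, 36.5% of the calls against 40.9%), 1133 with TMM scaling, 973 with no filter on low values, 1123 with a mean of at least 50, 1120 and 1129 with pseudocounts of 0.5 and 5, and 1336 with only the 6 libraries compared. The planned edgeR and DESeq2 fits were not run, because the table holds normalized values. Replicate numbers do not pair the libraries: deviations of same-numbered day 3 and day 9 libraries correlated at -0.11, 0.156 and -0.11 across genes, and day 3 replicate 3 correlated best with day 9 replicate 1 (0.284). A replicate block gave 1454 calls, 1122 of them shared with the 1123 reported. With only the 6 libraries the block gave 1180 calls, of which 922 were shared. Of the 1336 calls from the 6 libraries without a block, 1014 were shared.

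Leaving out each library in turn gave 627 to 2060 calls, 231 to 912 higher and 363 to 1148 lower. Shared calls with day 1 against KO ranged from 54 to 178 with the same sign and from 131 to 437 with the opposite sign. Those with KO against WT ranged from 363 to 1040 with the opposite sign and from 149 to 570 with the same sign. With a group reduced to 2 libraries its spread is still taken from all groups. USP7 stayed between -0.746 and -0.651. Among the named genes other than USP7, 126 of 186 were called and 86 kept their call in every alternative tried, with 0 reversed. Of the genes not called, 4 changed sign: STK31 (-0.09 without day 3 replicate 1, range to 0.497), COL1A1 (-0.189 without day 3 replicate 2, range to 0.524), CD14 (0.017 without day 9 replicate 2, range from -0.265) and VWF (-0.106 without day 9 replicate 3, range to 0.372). The cause of these shifts was not tested. The smallest called log2 change was 0.107.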

Other observations

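Several metabolic and signalling lists that are not described above held changes in both directions. Over all tested genes 7.42% were called. Among 24 NRF2 antioxidant genes 2 rose and 4 fell (1 to 3 and 2 to 7 with single libraries left out). NQO1, a quinone reductase, rose from 4660.4, 4850.7 and 4623.8 at day 3 to 5786.7, 5718.2 and 5493.2 at day 9 (log2 change 0.27, adjusted p = 0.000291 in limma), while HMOX1, which degrades heme, fell from 444.5, 406.5 and 396.8 to 337.4, 308.4 and 289.6 (-0.42, adjusted p = 0.00246). The 3 day 9 libraries lay above all day 3 libraries for NQO1 and below all of them for HMOX1. Of 35 cholesterol and fatty acid synthesis genes 1 rose and 5 fell (0 to 1 and 2 to 7). Of 35 hypoxia and glycolysis genes 3 rose and 3 fell (0 to 3 and 1 to 7). Among 40 ERK output genes 2 rose and 4 fell (1 to 3 and 2 to 9): PHLDA1 rose by 0.29 (adjusted p = 0.00012), and the ERK phosphatase gene DUSP5 fell from 499.9, 491.9 and 470.4 to 380.2, 368.9 and 288.6 (-0.50, adjusted p = 0.000529). Of 27 YAP and TEAD targets 2 rose and 5 fell (1 to 2 and 3 to 7), with log2 changes of -0.20 for MYOF (adjusted p = 0.002) and 0.20 for NT5E (adjusted p = 0.00481).

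The share called was 6.98% in the interferon list, 6.25% in the MHC class I list, 15.6% in the intestinal list, 13.6% among developmental factors, 11.1% among clock genes and 15.4% among PRC2 genes. Of 43 interferon-stimulated genes 2 rose and 1 fell (1 to 2 and 0 to 2), UBE2L6, the conjugating enzyme for ISG15, going from 202.9, 228.6 and 192.9 to 297.6, 309.4 and 279.6 (0.51, adjusted p = 0.000716). At day 1 against KO, 12 members of that list were higher and 0 lower. Of 16 MHC class I genes 1 rose, and without single libraries 0 to 1 rose and 0 to 3 fell. Of 32 intestinal differentiation genes 2 rose and 3 fell (2 to 5 and 2 to 5), of 23 Notch pathway genes 2 rose and 1 fell (2 to 4 and 0 to 1), and of 22 developmental transcription factors 2 rose and 1 fell (1 to 3 and 1 to 2). Among 18 clock genes the nuclear receptor gene RORA rose from 2285.7, 2490.4 and 2540.2 to 3248.7, 3132.3 and 3108.8 (0.38, adjusted p = 7.23e-05) and BMAL2 fell (1 to 2 and 0 to 2). Of 13 PRC2 genes 2 fell (1 to 3), of 55 nuclear oxidative phosphorylation genes 1 rose and 1 fell (1 and 0 to 1), and in each of the lists of 16 histone, 21 heat shock, 18 BCL2 family and 31 proteasome genes 1 fell. Of 5 germline genes 0 were called by limma, whichever library was left out, and 0 had an unadjusted p under 0.05. With single libraries left out, 0 to 3 histone, 1 to 4 heat shock, 0 to 2 BCL2 family and 0 to 4 proteasome genes fell.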
